A study of Mus musculus with 6 samples.

Results

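The 10 genes described here encode the surface class I molecules of the mouse major histocompatibility complex, the proteins that load them with peptide, the immune-type catalytic subunits of the proteasome and the factor that switches the class I genes on: H2-K1, H2-D1, B2m, Tap1, Tap2, Tapbp, Nlrc5, Psmb8, Psmb9 and Psmb10. They were chosen by name, but with earlier results of these data known. Each matched 1 of the 27378 gene IDs of the deposited count table through its GENCODE vM21 symbol. The study sequenced single CD45+ immune cells sorted by flow cytometry from mouse brain. CD45 is a surface protein of immune cells, microglia included. Libraries were droplet-based 3′ ones (10x Genomics, kit version 3), with 2 libraries in each of 3 groups. Rbpj-deleted tumours were gliomas without Trp53 and without Rbpj, control tumours were gliomas without Trp53 and with wild-type Rbpj, and healthy brains were wild type for both genes. Both tumour groups therefore share the loss of Trp53, a tumour suppressor, and only the first lacks Rbpj, the DNA-binding factor of Notch signalling. The design text gives pools of 9 Rbpj-deleted tumours, 15 control tumours and 9 healthy brains, whereas the extraction protocol speaks of the cells of each mouse in a single well, so the p-values given here measure the spread between libraries, which may be technical. Tumours were early gliomas, found and dissected by the green fluorescence of a Cre reporter; age and the promoter that drives Cre are not in the labels. The labels name the deletions by tumour, and the cells sequenced were immune cells of those tumours.

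Class I molecules carry peptides from inside the cell to its surface, where CD8 T cells read them; each is a heavy chain (H2-K1 and H2-D1) held by the light chain B2m. Peptides are cut by the proteasome, moved into the endoplasmic reticulum by the Tap1 and Tap2 transporter, and loaded with the help of Tapbp (tapasin), which bridges the transporter and the empty heavy chain. Interferon gamma raises the genes of this route in many cells, in part through Nlrc5, the class I transactivator; it also exchanges the constitutive proteasome subunits Psmb5, Psmb6 and Psmb7 for the immunoproteasome subunits Psmb8, Psmb9 and Psmb10. In the healthy brain, microglia, the resident macrophages of the tissue, are known for low class I levels.

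The table held 17362 barcodes of at least 1000 counts, with 49252701 and 32731006 counts in the Rbpj-deleted libraries, 18217310 and 17978360 in the control tumour libraries and 55229031 and 17430763 in the healthy libraries. Of these, 14402 cells were kept after filters: 2334 and 1827 from Rbpj-deleted tumours, 990 and 503 from control tumours, and 6315 and 2433 from healthy brain; 119 barcode sequences occurred in more than 1 library. Cells were clustered without the member genes, the pathway genes listed below and every other gene with an H2- symbol (102 genes), and 16 of 26 clusters were named from markers into 8 classes, each with the ending -like because the name rests on RNA alone. The 10 unnamed clusters held 13.03% to 28.628% of a library's kept cells. Ptprc, which encodes CD45, was found at 412 and 433 CPM (counts scaled to the same total in every library) in Rbpj-deleted tumours, 591 and 451 CPM in control tumours and 238 and 323 CPM in healthy brain. Rbpj itself stood at 60.6 and 44.5 CPM, against 85.4 and 89.0 CPM in control tumours and 33.1 and 58.8 CPM in healthy brain, in immune cells that the labels do not describe as deleted. The 2 healthy libraries stood apart in microglia: the Gm26802-led and Slc2a5-led clusters held 2975 and 1213 cells of healthy replicate 1 but 7 and 27 of healthy replicate 2, and the Hspb1-led cluster held 44 and 1441. Among class I and class II genes outside the members, H2-Eb1, H2-Ea-ps, H2-T22, H2-T24 and H2-Q5 were higher, and H2-T3, H2-Q1 and H2-Ob lower, in healthy replicate 2 and both Rbpj-deleted libraries than in healthy replicate 1 and both control libraries. H2-Ea-ps, a class II pseudogene, had 6175 and 4494 CPM in Rbpj-deleted tumours, 253 and 242 CPM in control tumours and 6.44 and 394 CPM in healthy replicates 1 and 2. No member split the libraries in this way, but a gene far higher in tumours than in healthy brain could hardly do so. H2-K1, for example, had 380 CPM in healthy replicate 2, against 3860 and 4661 CPM in control tumours. H2-K2 and H2-T23, taken up below, did not split in this way either. The part of this division in the members' levels was not tested. The division and the comparison of Rbpj-deleted with control tumours cannot be told apart. Comparisons with each healthy library alone are therefore given beside the pooled ones.

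On GRCm38, 7 members lie on chromosome 17. Tapbp (33915899 to 33929292, plus strand) and H2-K1 (33996017 to 34000347, minus strand) come first. Psmb9 (34181987 to 34187764, minus), Tap1 (34187553 to 34197225, plus), Psmb8 (34197721 to 34201454, plus) and Tap2 (34203527 to 34216321, plus) follow as neighbours, with Psmb9 and Tap1 overlapping at their starts. H2-D1 lies at 35262730 to 35267499 on the plus strand. B2m is on chromosome 2 (122147686 to 122153083, plus), and Nlrc5 (94434356 to 94527272, plus) and Psmb10 (105935735 to 105938444, minus) are on chromosome 8.

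RefSeq promoter windows (GRCm38.p6, starts as RefSeq gives them) were found for 8 of the 10 members, all but Tap2 and Nlrc5, and the 250 bases before the start were searched on both strands for 4 words known from class I and interferon-responsive promoters, chosen with these sequences in view. Nlrc5 acts at the X and Y boxes of class I promoters, so the first word was the core of the X2 box followed by the Y box, TGACGNNNNNNNNNNNNNNNNNNNNATTGG. It stood in 30 of 32851 windows of the same kind (0.0913%) and in 3 of the 8 members, the genes of both heavy chains and of the light chain. These matches are shown because they are what the promoters of the class I chains share; capitals mark the X2 core and the Y box.
H2-K1: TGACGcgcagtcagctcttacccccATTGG
H2-D1: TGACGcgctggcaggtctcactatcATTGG
B2m: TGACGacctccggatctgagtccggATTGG
The H2-K1 match lies 41 to 12 bases before the start at chr17:34000359-34000388 (minus strand), the H2-D1 match 101 to 72 bases before it at chr17:35262993-35263022 (plus strand) and the B2m match 78 to 49 bases before it at chr2:122147609-122147638 (plus strand). The H2-D1 match lies inside the GENCODE span of that gene given above, which begins before the RefSeq start.

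The kappa B word GGGATTCCC, bound by NF-kappa B, stood in 99 of the 32851 windows (0.301%) and in 2 of the 8 members, H2-K1 (110 to 102 bases before the start) and H2-D1 (170 to 162 bases before it). The interferon element GAAANNGAA stood in 2342 windows (7.13%) and in 1 member, B2m, as GAAActGAA 139 to 131 bases before the start. The STAT word TTCNNNGAA stood in 2306 windows (7.02%) and in 1 member, Psmb8, as TTCccaGAA 97 to 89 bases before the start at chr17:34198098-34198106. This match and the kappa B match of H2-D1 also lie inside the GENCODE spans given above, which begin before the RefSeq starts. No match overlapped another, and Tap1, Tapbp, Psmb9 and Psmb10 held none of these letters in their windows. The H2-K1 and B2m windows are shown whole because each holds the X2 and Y words beside a kappa B or interferon word, with all of these in capitals.
H2-K1, chr17:34000348-34000597, minus strand: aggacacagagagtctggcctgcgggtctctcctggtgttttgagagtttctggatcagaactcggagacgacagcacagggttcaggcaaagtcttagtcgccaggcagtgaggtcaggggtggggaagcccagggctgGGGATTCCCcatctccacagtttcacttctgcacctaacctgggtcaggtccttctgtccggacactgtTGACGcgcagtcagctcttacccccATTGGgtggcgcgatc
B2m, chr2:122147437-122147685, plus strand: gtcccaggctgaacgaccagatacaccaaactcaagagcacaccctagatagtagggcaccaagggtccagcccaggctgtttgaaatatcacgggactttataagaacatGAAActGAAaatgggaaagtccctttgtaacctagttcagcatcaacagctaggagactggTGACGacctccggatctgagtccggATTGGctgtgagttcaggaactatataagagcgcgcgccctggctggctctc
A match is a description of letters, and its use in these cells was not measured.

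Reads can be shared between near-identical genes, which bears on the heavy chains in particular. Of the 31-base words of the annotated transcripts, 22.755% of those of H2-K1 also occur in another gene, most often H2-D1, H2-Q10 and H2-Q7, and 26.901% of those of H2-D1, most often H2-K1, H2-Q1 and H2-Q7. Over the last 500 bases, where 3′ libraries read, the shares were 24.372% and 27.784%. These are shares of words and not of reads. The values of the 2 heavy chain genes are therefore uncertain by an amount that was not measured. Tapbp shared 34.918% of these last words with other genes, Psmb8 12.517%, Tap2 9.901% and Tap1 4.651%. Over whole transcripts, Tapbp shared words with 1749 other genes, H2-D1 with 1325, Psmb8 with 196, Tap2 with 14 and Tap1 with 6. The genes sharing most included Zbtb22 for Tapbp, the readthrough model Gm20496 for Psmb8 and Tap2, and Psmb9 for Tap1. B2m, Psmb10, Psmb9 and Nlrc5 shared 0% of theirs.

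In microglia-like cells, all 10 members rose in Rbpj-deleted tumours and 8 of the 10 in control tumours relative to healthy brain, by edgeR quasi-likelihood tests on counts summed per library, adjusted over 11036 genes. The background was 8.39% of genes called higher in Rbpj-deleted tumours and 2.75% in control tumours, and these comparisons share the 2 healthy libraries. The median log2 change of the members was 2.11 in Rbpj-deleted tumours, against -0.03 over all genes, and 1.98 in control tumours, against -0.02. All 10 were higher in every tumour library than in either healthy library in both comparisons, where 27.8% of genes were in Rbpj-deleted and 24% in control tumours. These counts of libraries that do not overlap, here and below, are on CPM scaled by TMM. TMM is the trimmed mean of M-values, the library scaling of the fits. The levels printed per library are CPM of the class total without it. Against healthy brain both scales gave all 10 members in each class tested. On the class total, 16.7% to 19% of genes were higher in this way. Without control replicate 2, 5 members were called in control tumours. The microglia-like class held 964 and 406 cells in Rbpj-deleted tumours, 217 and 160 cells in control tumours, and 4521 and 1614 cells in healthy brain, and different clusters carried it: the Tnf-led cluster held 699 and 88 of the Rbpj-deleted cells, 133 and 87 of the control cells, and 16 and 19 of the healthy cells.

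The heavy chain gene H2-K1 had 4561 and 3762 CPM (here and below, the counts of a class in a library are scaled to that same total) in Rbpj-deleted tumours, 3135 and 4567 CPM in control tumours and 512 and 262 CPM in healthy brain. Every tumour library lay above both healthy libraries. The log2 change against healthy brain was 3.63 ± 0.36 (SE) in Rbpj-deleted tumours (edgeR adjusted p = 0.000245) and 3.43 ± 0.36 in control tumours (edgeR adjusted p = 0.000589). Against healthy replicate 1 alone the Rbpj-deleted log2 difference was 3.02 and the control tumour difference 2.89; against healthy replicate 2 alone they were 3.98 and 3.85. The same differences were above 0 for all 10 members in each of the 3 myeloid classes, the smallest being that of Tapbp in control microglia-like cells against healthy replicate 1, 0.39. H2-D1, the other heavy chain gene, had 9675 and 5323 CPM in Rbpj-deleted tumours, 5831 and 10108 CPM in control tumours and 919 and 352 CPM in healthy brain. All tumour libraries lay above both healthy ones, but the replicates of each group lay far apart, and the SE of H2-D1 was the largest among the members. Its log2 change of 3.76 ± 0.69 in Rbpj-deleted tumours passed the test (edgeR adjusted p = 0.0361), and the 3.76 ± 0.69 in control tumours did not (edgeR adjusted p = 0.0836). H2-D1 in Rbpj-deleted microglia-like cells lost its call without either Rbpj-deleted replicate (edgeR adjusted p = 0.146 without replicate 1 and 0.196 without replicate 2).

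B2m, the light chain shared by all class I molecules, had 1358 and 1143 CPM in Rbpj-deleted tumours, 984 and 1583 CPM in control tumours and 447 and 452 CPM in healthy brain. The healthy libraries were close to each other and below all tumour libraries. B2m rose by 1.68 ± 0.25 in Rbpj-deleted tumours (edgeR adjusted p = 0.00120) and by 1.63 ± 0.25 in control tumours (edgeR adjusted p = 0.00271), on the log2 scale. For B2m, healthy replicate 2 differed from healthy replicate 1 by 0.02.

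The transporter gene Tap1 had 220.3 and 209.6 CPM in Rbpj-deleted tumours, 233 and 221 CPM in control tumours and 34.4 and 23.8 CPM in healthy brain. Its tumour libraries lay within a narrow range far above the healthy ones. The log2 change was 3.08 ± 0.23 in Rbpj-deleted tumours (edgeR adjusted p = 5.51e-06). Its partner Tap2 had 125 and 129 CPM in Rbpj-deleted tumours, 177 and 172 CPM in control tumours and 87.0 and 58.5 CPM in healthy brain, with the groups ordered and not overlapping. The log2 change of Tap2 was 1.0 ± 0.22 in Rbpj-deleted tumours (edgeR adjusted p = 0.0105) and 1.37 ± 0.22 in control tumours (edgeR adjusted p = 0.00354). Tapbp, the tapasin gene, had 292 and 303 CPM in Rbpj-deleted tumours, 242 and 281 CPM in control tumours and 199 and 189 CPM in healthy brain. Its log2 change of 0.82 ± 0.19 in Rbpj-deleted tumours passed (edgeR adjusted p = 0.0155), and that of 0.54 ± 0.19 in control tumours did not (edgeR adjusted p = 0.188), although no library overlapped.

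The transactivator gene Nlrc5 was found with 309 and 52 counts in Rbpj-deleted tumours, 66 and 73 counts in control tumours, and 19 and 5 counts in healthy brain, in microglia-like cells. These gave 32.6 and 17.1 CPM in Rbpj-deleted tumours, 26.9 and 38.5 CPM in control tumours and 0.653 and 0.465 CPM in healthy brain. Every tumour library lay above both healthy libraries, whose values rest on few counts from many cells. The log2 change of Nlrc5 was 5.61 ± 0.41 in Rbpj-deleted tumours (edgeR adjusted p = 8.51e-06) and had the highest value among the 10 members in both tumour groups.

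Of the immunoproteasome subunits, Psmb8 had 375 and 436 CPM in Rbpj-deleted tumours, 456 and 424 CPM in control tumours and 119 and 143 CPM in healthy brain. Psmb9 had 322 and 289 CPM in Rbpj-deleted tumours, 272 and 264 CPM in control tumours and 68.9 and 65.4 CPM in healthy brain. Psmb10 had 169 and 201 CPM in Rbpj-deleted tumours, 175 and 188 CPM in control tumours and 109 and 109.6 CPM in healthy brain. The tumour libraries stood above the healthy ones for all 3 genes, with the smallest distance for Psmb10. The log2 changes in Rbpj-deleted tumours were 1.83 ± 0.20 for Psmb8, 2.39 ± 0.19 for Psmb9 and 0.96 ± 0.19 for Psmb10 (edgeR adjusted p = 0.000106, 9.73e-06 and 0.00635). In control tumours they were 1.86 ± 0.20 for Psmb8, 2.11 ± 0.19 for Psmb9 and 0.84 ± 0.19 for Psmb10 (edgeR adjusted p = 0.000160, 4.23e-05 and 0.0326).

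In microglia-like cells, T cell, NK and monocyte markers were higher in every tumour library than in both healthy ones, and the other lists were not. The 10 monocyte markers summed to 136 and 147 CPM in Rbpj-deleted, 121 and 112 in control and 16.8 and 25.9 in healthy libraries. The 10 conventional dendritic markers summed to 237 and 212 CPM in Rbpj-deleted, 246 and 249 in control and 439 and 361 in healthy libraries. In microglia-like cells the summed level of 10 T cell markers was 33.4 and 25.1 CPM in Rbpj-deleted tumours, 21.6 and 30.03 CPM in control tumours and 5.99 and 5.30 CPM in healthy brain, with none of them at 0 in all libraries. The 10 NK markers summed to 26.3 and 20.1 CPM in Rbpj-deleted tumours, 19.5 and 18.4 CPM in control tumours and 5.33 and 3.998 CPM in healthy brain, with Klra8 at 0 throughout. The 12 microglia markers summed to less in the tumours, with 17344 and 20592 CPM in Rbpj-deleted tumours, 20059 and 21841 CPM in control tumours and 31932 and 32112 CPM in healthy brain. The part of these markers in the member differences was not tested.

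**Figure D1:**
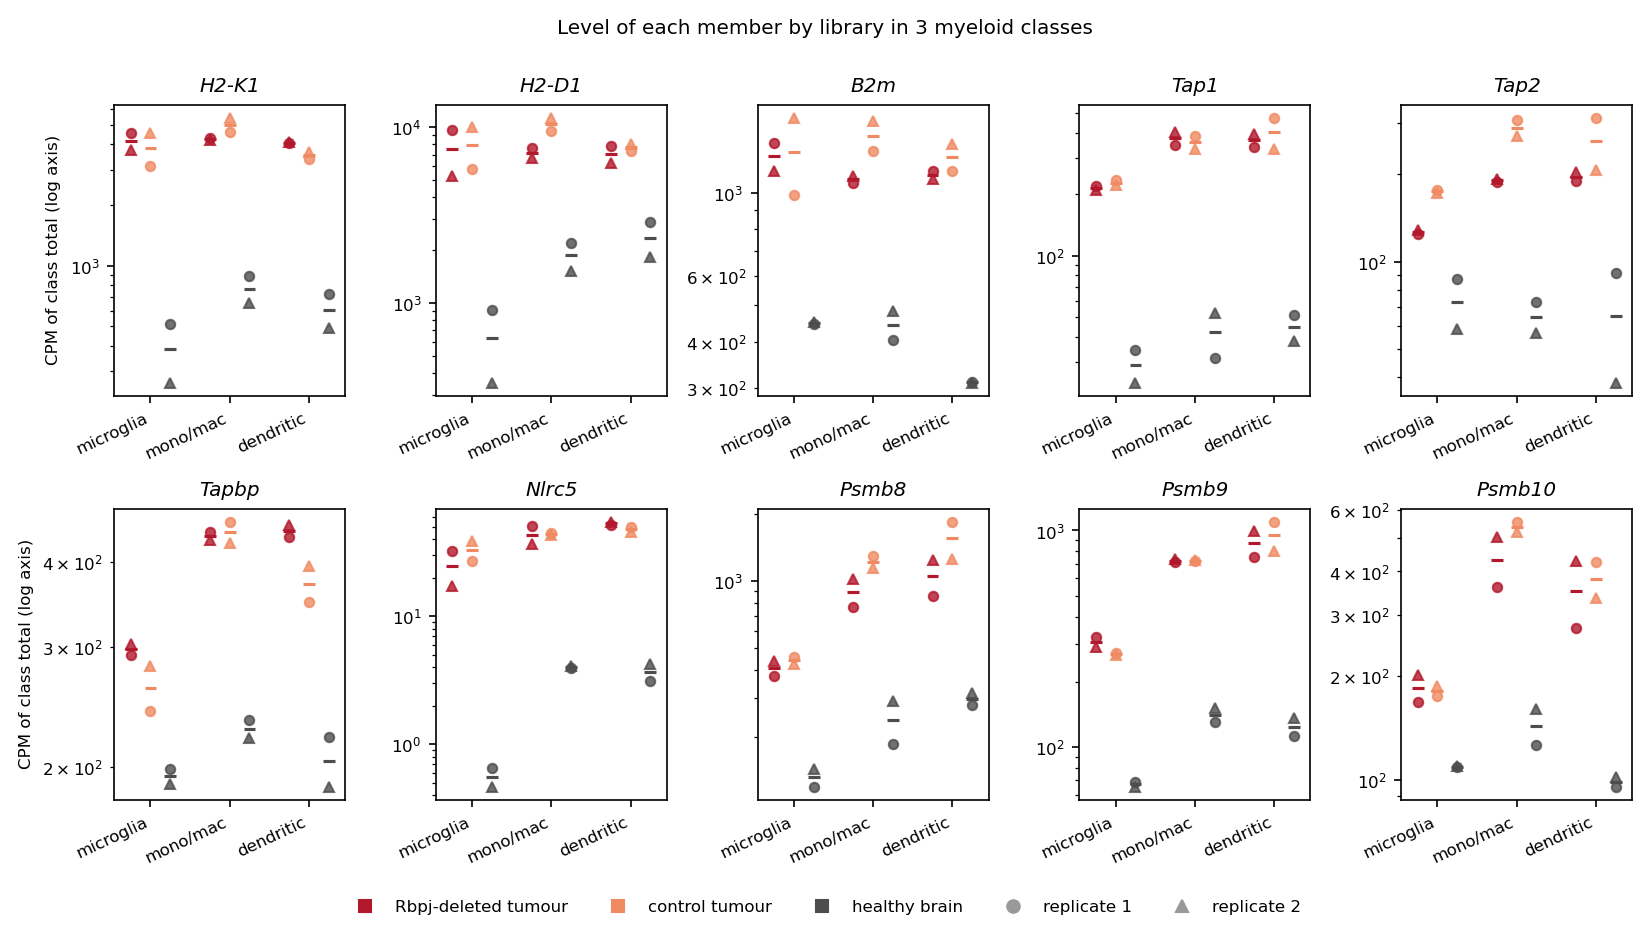
CPM of the 10 members on a log axis in microglia-like, monocyte/macrophage-like and dendritic-like cells, by group; bars give the mean of the 2 libraries, circles replicate 1 and triangles replicate 2. In all 3 classes the healthy libraries lie below the libraries of both tumour groups for every member, and Nlrc5 in healthy microglia-like cells is at 0.653 and 0.465 CPM.

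In monocyte/macrophage-like cells, the class of macrophages at brain borders and of cells derived from blood monocytes, all 10 members rose in both tumour groups relative to healthy brain. The background was 8.41% of 10157 genes called higher in Rbpj-deleted tumours and 9.64% in control tumours. All 10 were also higher without overlap of libraries in both comparisons, as were 30.1% of genes in Rbpj-deleted and 29.8% in control tumours. The median log2 change of the members was 2.22 in Rbpj-deleted tumours, against -0.01 over all genes, and 2.71 in control tumours, against -0.02. The class held 481 and 749 cells in Rbpj-deleted tumours, 196 and 57 cells in control tumours and 533 and 269 cells in healthy brain. Border macrophage clusters other than the Ccl8-led one held 520 and 246 of the healthy cells, whereas tumour cells lay mostly in the monocyte and Ccl8-led clusters. The Ccl8-led cluster had no healthy cell and no border macrophage marker among its 10 leading genes.

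H2-K1 in monocyte/macrophage-like cells had 4306 and 4215 CPM in Rbpj-deleted tumours, 4617 and 5423 CPM in control tumours and 891 and 651 CPM in healthy brain. H2-D1 had 7609 and 6694 CPM in Rbpj-deleted tumours, 9596 and 11328 CPM in control tumours and 2209 and 1529 CPM in healthy brain. B2m had 1061 and 1107 CPM in Rbpj-deleted tumours, 1288 and 1549.5 CPM in control tumours and 404 and 483 CPM in healthy brain. For these genes of the surface molecule the control tumour libraries were the highest and the healthy libraries the lowest. H2-K1 rose by 2.76 ± 0.30 in Rbpj-deleted tumours (edgeR adjusted p = 0.000362) and by 3.04 ± 0.31 in control tumours (edgeR adjusted p = 0.000181), on the log2 scale. H2-D1 rose by 2.23 ± 0.32 in Rbpj-deleted tumours and by 2.82 ± 0.32 in control tumours (edgeR adjusted p = 0.00150 and 0.000354), and B2m by 1.59 ± 0.26 and 2.02 ± 0.26.

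Tap1 had 348 and 403 CPM in Rbpj-deleted tumours, 386 and 331 CPM in control tumours and 31.7 and 52.4 CPM in healthy brain, and rose by 3.47 ± 0.30 and 3.45 ± 0.30 on the log2 scale in those tumour groups (edgeR adjusted p = 7.93e-05 and 6.32e-05). Tap2 had 188 and 193 CPM in Rbpj-deleted tumours, 307 and 271 CPM in control tumours and 72.4 and 57.0 CPM in healthy brain, a stepwise order without overlap. Its log2 change was 1.85 ± 0.23 in Rbpj-deleted tumours and 2.50 ± 0.24 in control tumours (edgeR adjusted p = 0.000748 and 0.000112). Tapbp, with 441 and 430.0 CPM in Rbpj-deleted tumours, 457 and 426 CPM in control tumours and 235 and 220.3 CPM in healthy brain, had the smallest change of the members, 1.23 ± 0.23 and 1.30 ± 0.23. Nlrc5 had 50.3 and 36.5 CPM in Rbpj-deleted tumours, 44.9 and 43.0 CPM in control tumours and 3.92 and 4.11 CPM in healthy brain, the last from 13 and 9 counts. It rose by 3.71 ± 0.31 in Rbpj-deleted and 3.79 ± 0.32 in control tumours (edgeR adjusted p = 6.39e-05 and 5.62e-05).

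Psmb8 had 766 and 1023 CPM in Rbpj-deleted tumours, 1298 and 1147 CPM in control tumours and 185 and 288 CPM in healthy brain. Psmb9 had 718 and 735 CPM in Rbpj-deleted tumours, 723 and 730.1 CPM in control tumours and 131 and 151 CPM in healthy brain. Psmb10 had 361 and 504 CPM in Rbpj-deleted tumours, 556 and 521 CPM in control tumours and 126 and 161 CPM in healthy brain. All 3 rose in both tumour groups, with log2 changes of 2.22 ± 0.31, 2.66 ± 0.25 and 1.89 ± 0.27 in Rbpj-deleted tumours and 2.71 ± 0.31, 2.71 ± 0.25 and 2.25 ± 0.27 in control tumours. The largest edgeR adjusted p of these 6 was that of Psmb10 in Rbpj-deleted tumours, 0.00154. In this class the 10 NK markers summed to 138 and 136 CPM in Rbpj-deleted tumours, 167 and 154 CPM in control tumours and 5.73 and 4.56 CPM in healthy brain, with Klra8 at 0. The 10 border macrophage markers summed to 3987 and 1974 CPM in Rbpj-deleted tumours, 1942 and 3054 CPM in control tumours and 15688 and 14956 CPM in healthy brain. Their part in the differences was not tested.

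In dendritic-like cells, which take up antigen and present it to T cells, 9 of 10 members rose in each tumour group relative to healthy brain, against 2.33% of 7685 genes called higher in Rbpj-deleted tumours and 2.56% in control tumours. Tapbp was the exception, with log2 changes of 1.24 ± 0.32 and 0.99 ± 0.33 (edgeR adjusted p = 0.0631 and 0.133). All 10 were higher without overlap in both comparisons, as were 22.3% and 24.5% of genes. The median log2 change of the members was 1.96 in Rbpj-deleted tumours, against -0.03 over all genes, and 2.32 in control tumours, against -0.02. The class was small, with 154 and 79 cells in Rbpj-deleted tumours, 74 and 14 cells in control tumours and 68 and 36 cells in healthy brain. Its 2 clusters were shared out unequally: the Ccl22-led one held 72 and 34 of the Rbpj-deleted cells, 24 and 5 of the control cells and 3 and 1 of the healthy cells, and the Cd209a-led one the rest, which came to 95.6% and 97.2% of the healthy cells. The part of this shift in the differences was not tested.

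H2-K1 in dendritic-like cells had 4076 and 4104 CPM in Rbpj-deleted tumours, 3379 and 3677 CPM in control tumours and 721 and 491 CPM in healthy brain. Tap1 had 339.5 and 395 CPM in Rbpj-deleted tumours, 473 and 333 CPM in control tumours and 51.0 and 38.3 CPM in healthy brain. Psmb8 had 856 and 1251 CPM in Rbpj-deleted tumours, 1849 and 1263 CPM in control tumours and 278 and 315 CPM in healthy brain. The healthy libraries were lowest for each, and the 2 tumour groups overlapped for Tap1. Both Rbpj-deleted libraries were above the control ones for H2-K1 and below them for Psmb8, whose groups overlapped once scaled by TMM. Log2 changes in Rbpj-deleted tumours were 2.89 ± 0.38 for H2-K1, 3.15 ± 0.37 for Tap1 and 1.96 ± 0.39 for Psmb8 (edgeR adjusted p = 0.000926, 0.000438 and 0.0143). Those of the remaining called members lay between 1.69 ± 0.39 for Tap2 and 4.0 ± 0.50 for Nlrc5, whose healthy values rest on 3 and 2 counts. In control tumours they lay between 1.84 ± 0.38 for H2-D1 and 3.86 ± 0.52 for Nlrc5. Without Rbpj-deleted replicate 2, 5 members were called in that comparison. In dendritic-like cells the NK markers summed to 148 and 453 CPM in Rbpj-deleted tumours, 203 and 79.3 CPM in control tumours and 19.8 and 38.3 CPM in healthy brain, and the 10 conventional dendritic markers to 1988 and 2052 CPM in Rbpj-deleted tumours, 2355 and 1065 CPM in control tumours and 1007 and 986 CPM in healthy brain. The part of these markers in the differences was not tested.

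**Figure D2:**
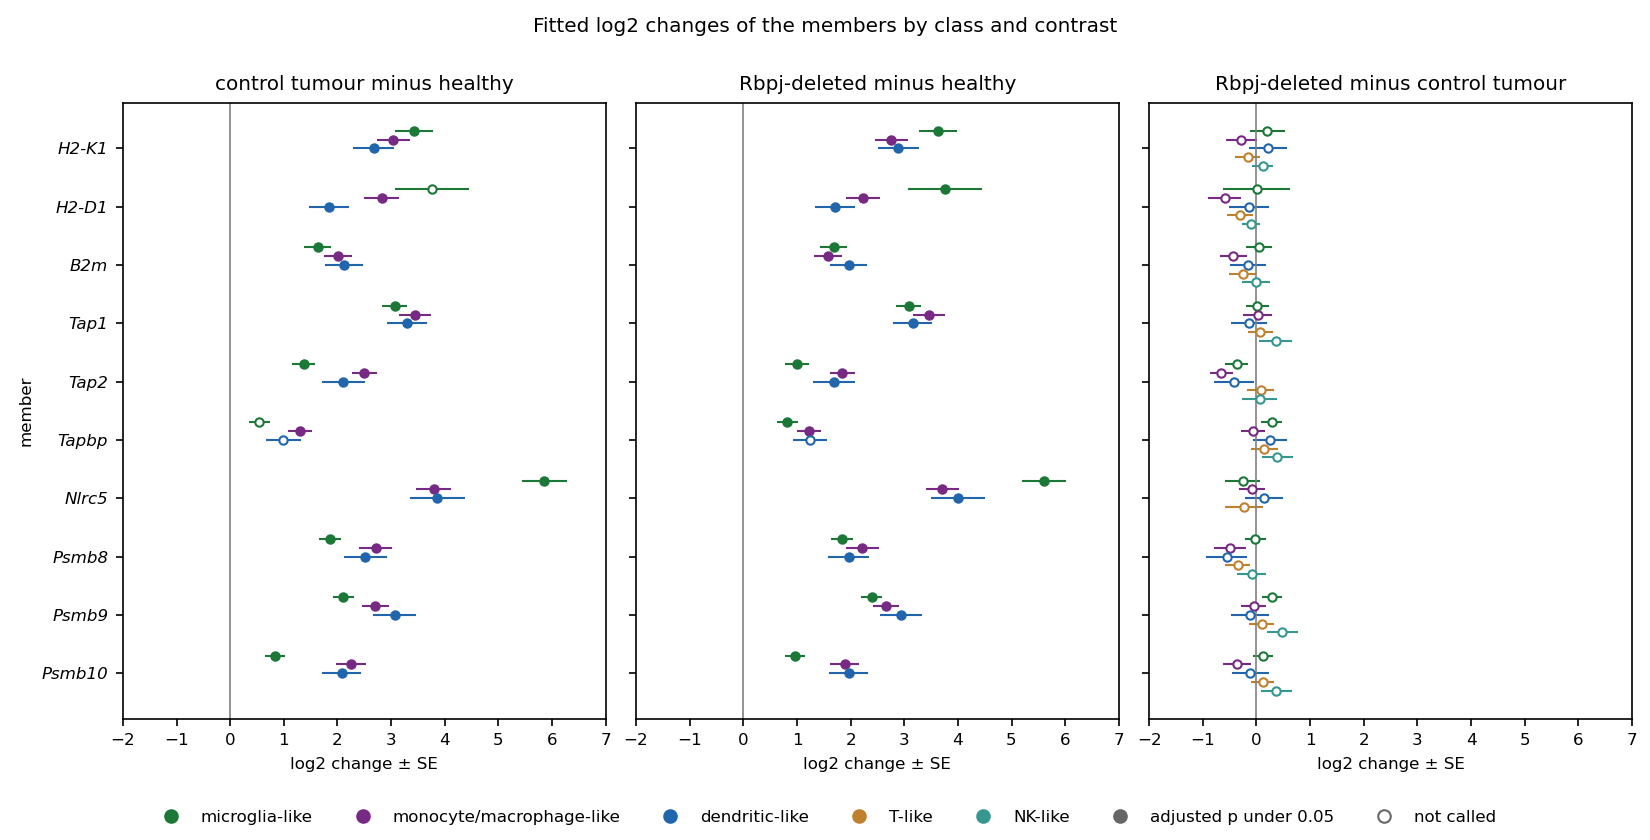
Log2 change of each member with its SE in microglia-like, monocyte/macrophage-like and dendritic-like cells, for Rbpj-deleted and control tumours against healthy brain and for Rbpj-deleted against control tumours; filled points have an edgeR adjusted p under 0.05. Against healthy brain 8 to 10 members are filled in each class, and between the tumour groups none is.

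Rbpj-deleted and control tumours were compared in 5 classes, and 0 members were called in any of them by edgeR. Called genes were 0.136% of those tested in microglia-like cells, 0.0492% in monocyte/macrophage-like cells, 0.052% in dendritic-like cells, 0.168% in T-like cells and 0.458% in NK-like cells, so few genes of any kind passed. At an unadjusted p under 0.05, 0 members passed in 4 of the classes and 1 in monocyte/macrophage-like cells, Tap2, while 1464, 710, 508, 450 and 292 genes did in the 5 classes in that order; DESeq2 also called 0 members. In monocyte/macrophage-like cells, 7 of the 10 members were lower in both Rbpj-deleted libraries than in both control libraries after TMM scaling, as were 16.3% of genes, and 0 were higher, as were 18.4%. In CPM of the class total 6 were lower, beside 13.8% of genes, as Psmb9 overlapped there. The median log2 change there was -0.32, against 0.02 over all genes. Tap2 had the smallest p, with a log2 change of -0.65 ± 0.22 (edgeR adjusted p = 0.583), followed by H2-D1 with -0.60 ± 0.30 (edgeR adjusted p = 0.774).

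In microglia-like cells, Rbpj-deleted minus control log2 changes lay between -0.37 ± 0.22 for Tap2 and 0.29 ± 0.19 for Psmb9, with a median of 0.03 against -0.01 over all genes. After TMM scaling, Psmb9 and Tapbp were higher without overlap, as were 24.1% of genes, and Tap2 was lower, as were 23.2%. In CPM of the class total the same 2 were higher, as were 17.4%, and Tap1 and Tap2 were lower, as were 30.6%. H2-K1 changed by 0.20 ± 0.33 (edgeR adjusted p = 0.834). In dendritic-like cells H2-K1, Tapbp and Nlrc5 were higher without overlap, as were 17% of genes, and B2m was lower, as were 16.5%, after TMM scaling. In CPM of the class total the same 3 were higher, as were 17.1% of genes. Tap2 and Psmb8 in place of B2m were lower there, as were 15.9%. With 2 libraries a group, the SE of the members' changes was 0.19 to 0.62 in microglia-like cells.

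T-like cells, which include the CD8 T cells that read class I molecules, numbered 55 and 86 in Rbpj-deleted tumours and 189 and 102 in control tumours. H2-K1 had 3484 and 4195 CPM in Rbpj-deleted and 3838 and 4119 CPM in control tumours, Tap1 308 and 338 CPM in Rbpj-deleted and 278 and 289 CPM in control tumours, and Psmb8 1035 and 1201 CPM in Rbpj-deleted and 1285 and 1345 CPM in control tumours. Their log2 changes between the tumour groups ranged over the members from -0.35 ± 0.23 for Psmb8 to 0.15 ± 0.25 for Tapbp. After TMM scaling, Psmb8 was lower without overlap, as were 19.3% of genes, and 0 members were higher, as were 17.7%. In CPM of the class total Psmb8 was lower too, as were 13.3% of genes. On that scale 3 members, Tap1, Psmb9 and Psmb10, were higher, as were 23.9% of genes. The only healthy library with at least 10 T-like cells (replicate 2, 15 cells) had 1934 CPM of H2-K1, 81.2 CPM of Tap1 and 273 CPM of Tap2, and no test against healthy brain was made in this class. Every member but Tap2 was lower in that library than in all tumour libraries. The share of all genes lower in this way was not counted, so this is only a description.

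NK-like cells, which kill cells with too little class I, numbered 51 and 68 in Rbpj-deleted tumours and 109 and 17 in control tumours. H2-K1 had 4462 and 5172 CPM in Rbpj-deleted and 3787 and 4701 CPM in control tumours, and Psmb9 had 630.5 and 569 CPM in Rbpj-deleted and 409 and 411 CPM in control tumours. Psmb9 had the largest log2 change of the 9 members tested, 0.49 ± 0.29 (edgeR adjusted p = 0.764), followed by Tapbp with 0.39 ± 0.29, Psmb10 with 0.37 ± 0.29 and Tap1 with 0.36 ± 0.31. These 4 were higher without overlap after TMM scaling, as were 19.1% of genes, and H2-D1 was lower, as were 18.7%. In CPM of the class total the same 4 were higher, as were 22.6% of genes, and 0 lower, as were 15.7%. Nlrc5, with 39.7 and 16.5 CPM in Rbpj-deleted and 34.8 and 0 CPM in control tumours, had too few counts for the test.

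B-like and pDC-like cells (pDC, plasmacytoid dendritic cells, which make type I interferon) are given as values without a test, since only 1 control library held at least 10 cells of each, and for pDC-like cells only 1 healthy library as well. H2-K1 in B-like cells had 1791 and 1235 CPM in Rbpj-deleted tumours, 3756 CPM in the 1 control library with at least 10 cells and 1442 and 1152 CPM in healthy brain. Psmb9 in B-like cells had 829 and 356 CPM in Rbpj-deleted tumours, 818 CPM in the control library and 238 and 199 CPM in healthy brain. The Rbpj-deleted B-like values for H2-K1 lay near the healthy ones and below the control one, with 10 and 23 cells behind them. In pDC-like cells H2-K1 had 4481 and 3649 CPM in Rbpj-deleted tumours, 4405 CPM in 1 control library and 1704 CPM in 1 healthy library, and Tap1 had 220.3 and 241 CPM, 281 CPM and 63.9 CPM in those groups. The healthy pDC-like library was the lowest for all 10 members, Nlrc5 being listed at 0 there. How many of all genes were lowest in that library was not counted, so this too is only a description.

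The exchange of proteasome subunits was read as the ratio of each immunoproteasome subunit to the constitutive one it replaces within a library. The scaling of libraries cannot move this measure. How fully each gene was captured was not measured, so only changes of a ratio are read. In microglia-like cells the Psmb8 to Psmb5 ratio was 3.04 and 2.98 in Rbpj-deleted tumours, 3.71 and 4.82 in the control libraries and 1.20 and 1.34 in the healthy libraries. The Psmb9 to Psmb6 ratio was 1.40 and 0.818 in Rbpj-deleted tumours, 1.42 and 1.72 in the control libraries and 0.372 and 0.388 in the healthy libraries. The Psmb10 to Psmb7 ratio was 2.28 and 2.02 in Rbpj-deleted tumours, 2.13 and 2.52 in the control libraries and 1.81 and 1.44 in the healthy libraries. All 3 pairs were higher in every tumour library than in every healthy one. Of single genes, 27.8% in Rbpj-deleted and 24% in control tumours were higher in this way after TMM scaling. The share among other ratios was not counted. With 2 libraries a group the exact two-sided permutation p was 0.33, the smallest this design allows.

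The same held for all 3 pairs in monocyte/macrophage-like and dendritic-like cells, in both tumour groups. Single genes higher than in healthy brain in this way were 30.1% in Rbpj-deleted and 29.8% in control monocyte/macrophage-like cells. In dendritic-like cells they were 22.3% and 24.5%. In monocyte/macrophage-like cells the mean log2 ratio of Psmb9 to Psmb6 differed from healthy brain by 1.83 in Rbpj-deleted tumours and 2.09 in control tumours, and that of Psmb10 to Psmb7 by 1.22 and 1.26. In microglia-like cells the Psmb10 to Psmb7 differences were smaller, 0.41 and 0.53; the difference between the classes was not tested for this ratio. Between the tumour groups, 6 of the 15 pairs of ratio and class did not overlap. Groups of 2 libraries that do not differ fail to overlap, in either direction, in a share of 0.33 of comparisons. The 6 of 15 lie near that share, so the directions below are only a description. Of single genes, 24.1% were higher and 23.2% lower without overlap in microglia-like cells after TMM scaling. In monocyte/macrophage-like cells 18.4% were higher and 16.3% lower. Psmb8 to Psmb5 was lower in both Rbpj-deleted libraries of microglia-like and of monocyte/macrophage-like cells, by mean log2 differences of -0.49 and -0.46. Psmb9 to Psmb6 was lower in microglia-like cells (-0.55), and Psmb10 to Psmb7 in monocyte/macrophage-like cells (-0.03). Psmb10 to Psmb7 was higher in dendritic-like cells, 3.45 and 4.02 in Rbpj-deleted tumours against 2.48 and 2.50 in control tumours, and in T-like cells, 1.91 and 2.23 in Rbpj-deleted against 1.54 and 1.66 in control tumours. Each of these 6 differences had an exact two-sided p of 0.33.

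**Figure D3:**
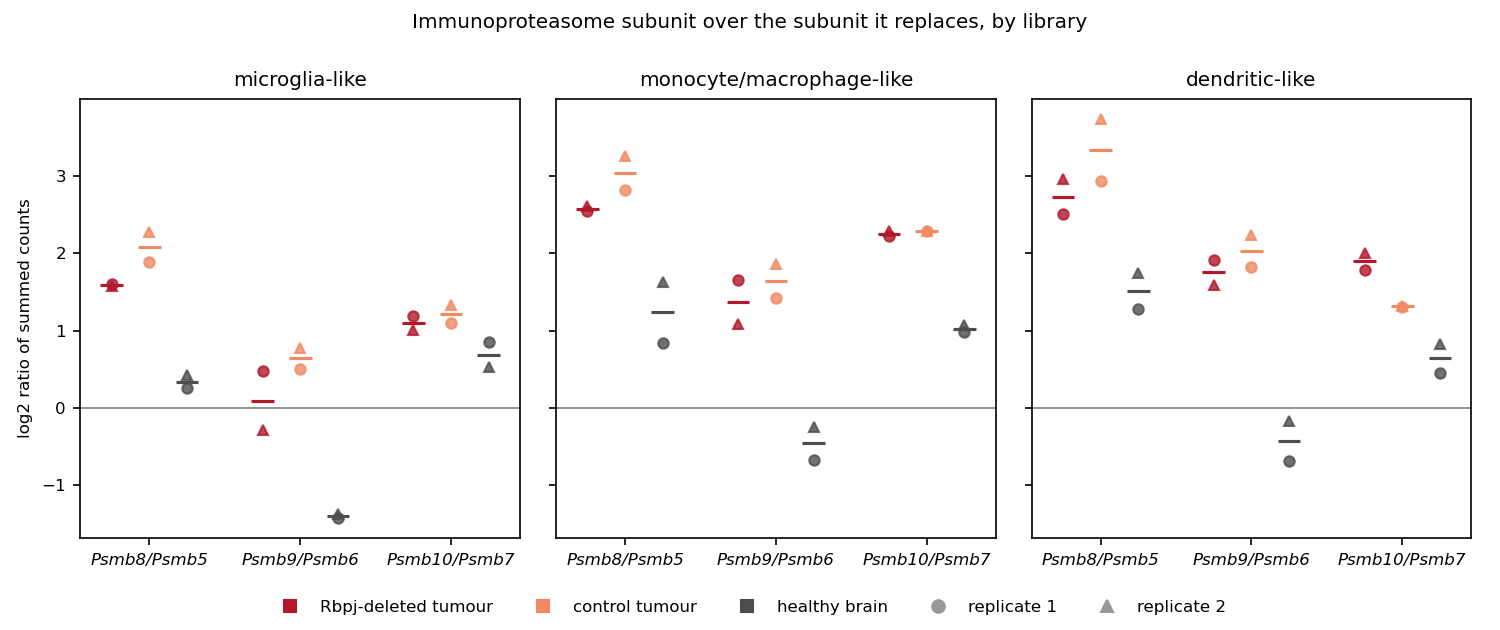
Log2 ratio of each immunoproteasome subunit to the constitutive subunit it replaces, by class and group; bars give the mean of the 2 libraries and points the libraries. In the 3 myeloid classes every tumour library lies above both healthy libraries for each pair, and the Psmb10 to Psmb7 differences in microglia-like cells, 0.41 and 0.53, are among the smallest shown.

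Because tumour and healthy cells of a class lay in different clusters, the members were also read within clusters, as a description. In the Tnf-led microglia-like cluster, H2-K1 had 4919.6 and 4904 CPM in Rbpj-deleted tumours, 4203 and 5406 CPM in control tumours and 1189 and 537 CPM in healthy brain. In the Spp1-led cluster, which held 194 and 274 Rbpj-deleted, 10 and 14 control and 273 and 120 healthy cells, it had 3313 and 3574 CPM in Rbpj-deleted tumours, 3393 and 5272 CPM in control tumours and 915 and 448 CPM in healthy brain. In the other microglia-like clusters, with 71 and 44, 74 and 59, and 4232 and 1475 cells, it had 2136 and 2294 CPM in Rbpj-deleted tumours, 945 and 2867 CPM in control tumours and 475 and 239.5 CPM in healthy brain. The tumour libraries were above the healthy ones within each of these cluster groups, and the tumour levels were highest in the Tnf-led cluster. Tap1 in the other microglia-like clusters had 94.6 and 109 CPM in Rbpj-deleted tumours, 92.3 and 101 CPM in control tumours and 34.0 and 23.9 CPM in healthy brain. In the Tnf-led cluster Tap1 had 242 and 329.6 CPM in Rbpj-deleted tumours, 323 and 285 CPM in control tumours and 21.7 and 38.8 CPM in healthy brain. Tapbp in the other microglia-like clusters overlapped, with 235 and 263 CPM in Rbpj-deleted tumours, 159.5 and 208 CPM in control tumours and 199.7 and 188 CPM in healthy brain. Without the Tnf-led cluster, 7 members were called in Rbpj-deleted and 3 in control tumours, and H2-K1 in control tumours changed by 2.74 (edgeR adjusted p = 0.269).

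An unnamed cluster led by Ifit genes, which interferons induce, held 28 and 89 Rbpj-deleted, 9 and 8 control and 94 and 29 healthy cells. Its H2-K1 level was 2977 and 4676 CPM in Rbpj-deleted tumours, against 823 and 589 CPM in healthy brain, and its Tap1 level 278 and 346 CPM, against 88.6 and 158 CPM in healthy brain. Tap2 overlapped there, with 120.4 and 154 CPM in Rbpj-deleted tumours and 139.6 and 109.6 CPM in healthy brain. Tap1 was thus higher in this healthy cluster than in the healthy cells of the named microglia-like clusters, a difference not tested.

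Among monocyte/macrophage-like cells, the monocyte clusters had 4209 and 4041 CPM of H2-K1 in Rbpj-deleted tumours, 4582 and 4862 CPM in control tumours and 899 and 997 CPM in healthy brain, from 184 and 576, 134 and 29, and 13 and 23 cells. The Ccl8-led border cluster, with no healthy cells, had 4648 and 5654 CPM in Rbpj-deleted tumours and 6087 and 6453 CPM in control tumours. The other border macrophage clusters had 2480.4 and 3331 CPM in Rbpj-deleted tumours, 1474 CPM in control replicate 1 and 891 and 608 CPM in healthy brain. In these last clusters the 27 cells of control replicate 1 lay near the healthy level for several members: Tap1 had 154 and 227 CPM in Rbpj-deleted tumours, 39.4 CPM in that control library and 31.9 and 46.2 CPM in healthy brain. Tap2 had 97.8 and 101 CPM in Rbpj-deleted tumours, 43.4 CPM in that control library and 70.2 and 56.9 CPM in healthy brain, and the control library was the lowest. Psmb9 had 504 and 531 CPM in Rbpj-deleted tumours, 146 CPM in that control library and 131 and 146 CPM in healthy brain. With 1 control library of at least 10 cells there, no test was made.

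**Figure D4:**
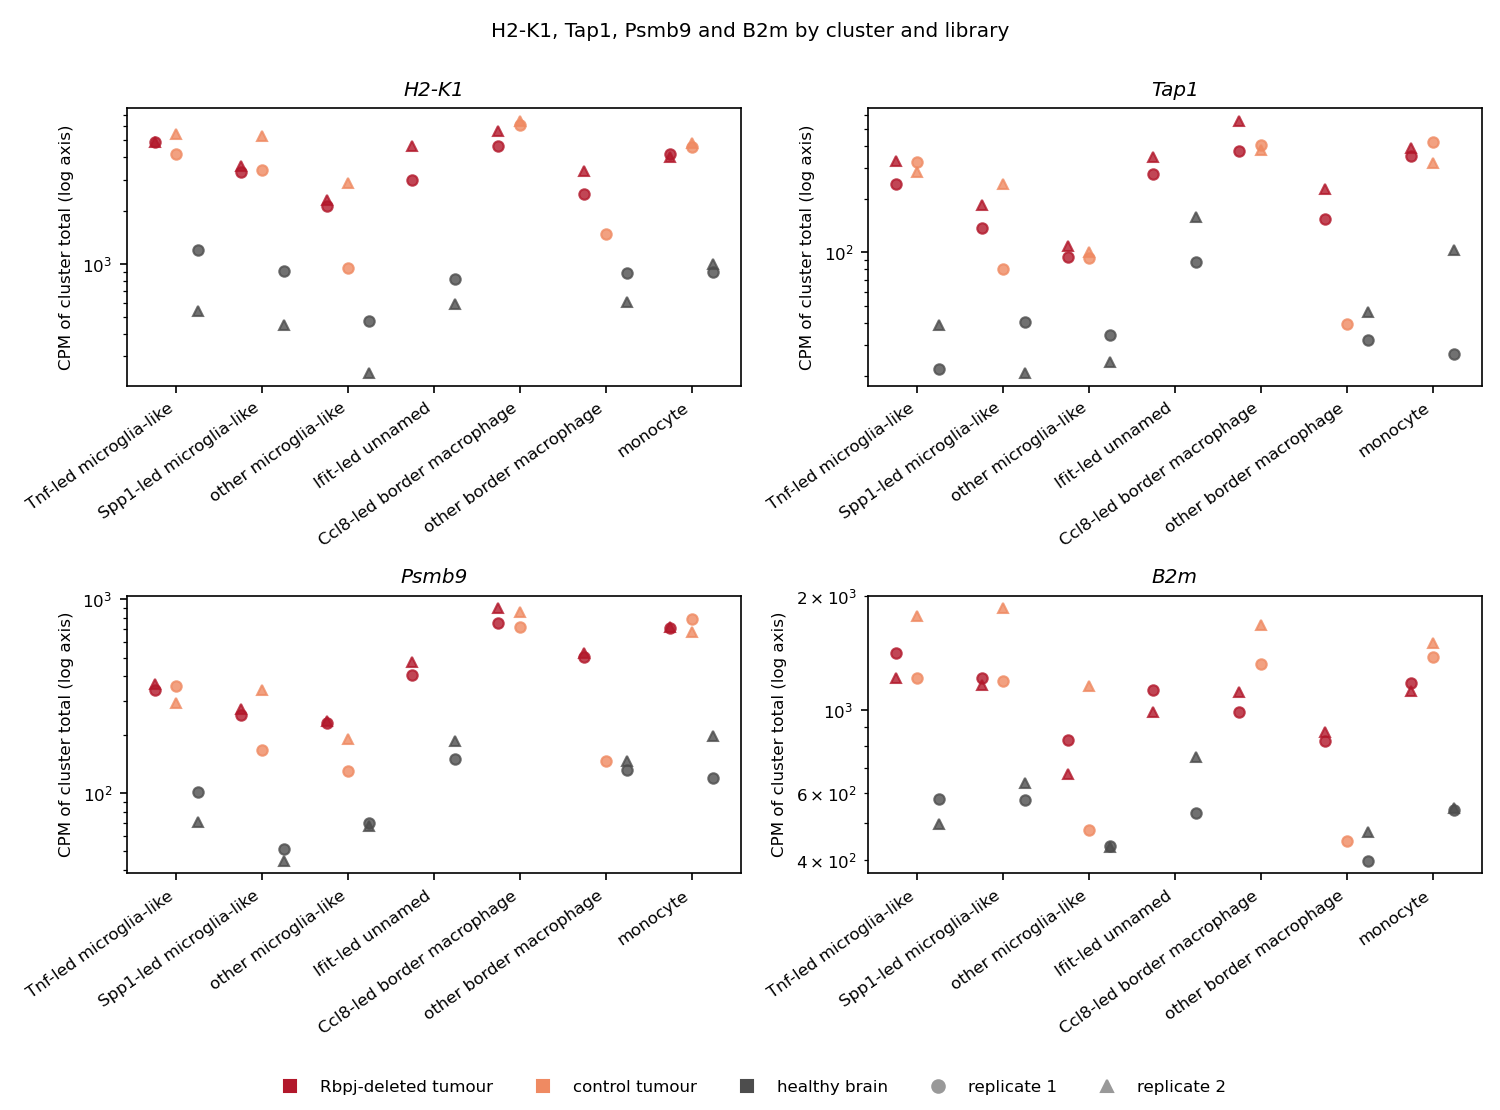
CPM of H2-K1, Tap1, Psmb9 and B2m in 7 groups of clusters, by group and library; a library with under 10 cells in a cluster is not drawn. H2-K1 in the other microglia-like clusters stands at 2136 and 2294 CPM in Rbpj-deleted tumours, 945 and 2867 CPM in control tumours and 475 and 239.5 CPM in healthy brain, and the Ccl8-led cluster has no healthy points.

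Whether the tumour difference of a member was unequal between monocyte/macrophage-like and microglia-like cells was tested with limma on the difference of the 2 classes within each library, over 9708 genes. 0 members and 0 genes passed in each of the 3 contrasts. At an unadjusted p under 0.05, 5 members passed in Rbpj-deleted and 5 in control tumours against healthy brain, beside 1534 and 2054 genes, and 0 members between the tumour groups, beside 1138 genes. The members nearest to the threshold in control tumours were Tap2, whose log2 change was larger in monocyte/macrophage-like cells by 1.11 ± 0.19 (limma adjusted p = 0.0986), Psmb10 with 1.43 ± 0.27 (limma adjusted p = 0.101) and Nlrc5, with -2.02 ± 0.39 (limma adjusted p = 0.105). In Rbpj-deleted tumours the corresponding values were 0.83 ± 0.19 for Tap2 (limma adjusted p = 0.198) and -1.75 ± 0.39 for Nlrc5 (limma adjusted p = 0.195).

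The other genes of the route were read in 8 lists of 71 genes, chosen with earlier results of these data known. Among the other class I molecules, 6 of 13 tested rose in microglia-like cells of each tumour group, and 0 fell. Of all genes tested there, 8.39% were called higher in Rbpj-deleted and 2.75% in control tumours. H2-Q7, a non-classical class I heavy chain gene that shares words with both member heavy chains, had 427 and 176 CPM in Rbpj-deleted tumours, 166 and 311 CPM in control tumours and 6.12 and 4.56 CPM in healthy brain, and H2-M3, which presents formylated peptides of bacteria and mitochondria, rose by 2.19 ± 0.35 in Rbpj-deleted and 1.81 ± 0.35 in control tumours (edgeR adjusted p = 0.00598 and 0.0323). In monocyte/macrophage-like cells 7 of 13 rose in each tumour group, and 1, Mr1, which presents vitamin B metabolites, fell in control tumours with a log2 change of -2.06 ± 0.61 (edgeR adjusted p = 0.0460). The shares of all genes called higher in that class were 8.41% in Rbpj-deleted and 9.64% in control tumours. In dendritic-like cells 4 of 11 rose in each tumour group: H2-Q4, H2-Q6, H2-Q7 and H2-M3. There the shares were 2.33% in Rbpj-deleted and 2.56% in control tumours.

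Of the 3 genes of the proteasome activator PA28, which opens the proteasome gate, Psme1 and Psme2 rose in all 3 myeloid classes in both tumour groups, and Psme3 in none. Psme1 in microglia-like cells had 441 and 482 CPM in Rbpj-deleted tumours, 405 and 375 CPM in control tumours and 175 and 173 CPM in healthy brain, with log2 changes of 1.61 ± 0.19 and 1.28 ± 0.19 (edgeR adjusted p = 0.000182 and 0.00205). Psme2 rose there by 1.53 ± 0.23 and 1.04 ± 0.23, and in monocyte/macrophage-like cells by 2.27 ± 0.30 and 2.54 ± 0.31 (edgeR adjusted p = 0.00106, 0.0249, 0.00107 and 0.000545). The constitutive catalytic subunits moved less: in microglia-like cells 1 of 3, Psmb6, rose in Rbpj-deleted tumours by 0.93 ± 0.23 (edgeR adjusted p = 0.0206) and 0 in control tumours. In monocyte/macrophage-like cells Psmb5 rose in both tumour groups and Psmb7 in control tumours. Of the 11 other subunits of the proteasome core, 5 rose in Rbpj-deleted and 0 in control microglia-like cells, and 6 and 5 rose in monocyte/macrophage-like cells. The share of all genes called higher was also unequal in microglia-like cells, 8.39% in Rbpj-deleted and 2.75% in control tumours. In monocyte/macrophage-like cells it was 8.41% and 9.64%. Compared directly between Rbpj-deleted and control tumours, 0 genes of these lists were called by edgeR in the 3 myeloid classes. None of the 7 or 8 tested genes of peptide trimming and loading helpers was called in any of the 3 classes in either tumour group.

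Among the regulators, Irf1 and Stat2, which carry interferon signals to DNA, rose in microglia-like cells of each tumour group. Irf1 had 51.1 and 42.5 CPM in Rbpj-deleted tumours, 53.8 and 52.2 CPM in control tumours and 7.67 and 8.93 CPM in healthy brain, with log2 changes of 2.72 ± 0.21 and 2.79 ± 0.22 (edgeR adjusted p = 7.76e-06 and 1.52e-05). Stat2 had 56.3 and 59.7 CPM in Rbpj-deleted tumours, 69.6 and 76.4 CPM in control tumours and 21.6 and 23.9 CPM in healthy brain, with log2 changes of 1.56 ± 0.19 and 1.80 ± 0.20 (edgeR adjusted p = 0.000266 and 0.000176). Every tumour library lay above both healthy libraries for both genes. Irf1 and Stat2 also rose in monocyte/macrophage-like cells, beside Rfx5 and Ciita in both tumour groups and Irf8 in control tumours. In dendritic-like cells Irf1 rose by 3.25 ± 0.48 and 2.96 ± 0.49, and Irf8 was called in control tumours.

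Ifng, the interferon gamma gene, was found at its higher levels in lymphoid classes, with 946 and 857 CPM in Rbpj-deleted and 710.1 and 1242 CPM in control T-like cells, and 335 and 557 CPM in Rbpj-deleted and 189 and 245 CPM in control NK-like cells, against 545 CPM in healthy replicate 2. In microglia-like cells it was at 4.11 and 2.31 CPM in Rbpj-deleted tumours, 1.22 and 3.16 CPM in control tumours and 0.138 and 0.465 CPM in healthy brain, from 39 and 7, 3 and 6, and 4 and 5 counts; the Rbpj-deleted difference from healthy brain passed (edgeR adjusted p = 0.00695). Those values lay beside the T and NK marker sums given above, and the part of free or mixed RNA in them was not tested. The interferon gamma receptor gene Ifngr1 fell in Rbpj-deleted microglia-like cells, with 743 and 626 CPM, against 852 and 936 CPM in control tumours and 1525 and 2003 CPM in healthy brain (log2 change -1.16 ± 0.22 against healthy brain, edgeR adjusted p = 0.00470).

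Between the tumour groups, 0 genes of the 8 lists were called in the 3 myeloid classes. In T-like cells H2-T22 and H2-K2 were called higher in Rbpj-deleted tumours. H2-K2, a heavy chain gene near H2-K1, had 349 and 446 CPM in Rbpj-deleted and 78.8 and 77.3 CPM in control T-like cells (log2 change 2.24 ± 0.24, edgeR adjusted p = 0.0180). H2-T22, a ligand of gamma delta T cells, had 325 and 246 CPM in Rbpj-deleted and 4.97 and 5.10 CPM in control T-like cells (edgeR adjusted p = 0.000540). In NK-like cells it had 216 and 165 CPM in Rbpj-deleted tumours and was at 0 in both control libraries, and H2-K2 (log2 change 2.21 ± 0.32, edgeR adjusted p = 0.00108) and H2-T23 (2.15 ± 0.33, edgeR adjusted p = 0.00173) were called higher as well. H2-T22 is one of the genes that also part the 2 healthy libraries, and over all kept cells H2-K2 had 5.88 and 36.2 CPM and H2-T23 20.8 and 115 CPM in healthy replicates 1 and 2. The differences of these 3 genes cannot be told apart from that division. In microglia-like cells H2-K2 had 671 and 471 CPM in Rbpj-deleted tumours, 36.2 and 31.6 CPM in control tumours and 3.58 and 21.5 CPM in healthy brain, and its change between the tumour groups did not pass (edgeR adjusted p = 0.308).

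Across classes the members were ordered alike in part. In Rbpj-deleted tumours, among 7 classes with 2 libraries, B-like cells had the lowest mean level of H2-K1, H2-D1, B2m, Tap1, Tap2, Tapbp and Nlrc5, and microglia-like cells the lowest of Psmb8, Psmb9 and Psmb10. NK-like cells had the highest of H2-K1, H2-D1 and Psmb10, and T-like cells the highest of Tap2, Psmb8 and Psmb9. For H2-K1, neighbours in that order did not overlap in 2 of 6 steps, NK-like above monocyte/macrophage-like cells and T-like above B-like cells. In control tumours, among 5 classes, monocyte/macrophage-like cells had the highest mean of H2-K1, H2-D1, B2m, Tap2, Tapbp and Psmb10, and microglia-like cells the lowest of the 3 immunoproteasome subunits; for H2-K1 all neighbours overlapped. In healthy brain, among 4 classes, B-like cells were highest for H2-K1, H2-D1, Tap1, Nlrc5, Psmb8, Psmb9 and Psmb10. Microglia-like cells were lowest for the first 6 of these and highest for B2m and Tap2, overlapping the next class for both. B-like cells thus stood at opposite ends of the healthy and Rbpj-deleted orders for H2-K1, H2-D1, Tap1 and Nlrc5, a difference not tested. The healthy order lacks NK-like, T-like and pDC-like cells, which had 1 healthy library each. Those libraries had 2254, 1934 and 1704 CPM of H2-K1, above the B-like mean of 1297 CPM, and were also above it for H2-D1. For Tap1 they lay below it. B-like Nlrc5 had a mean of 6.35 CPM (SD 8.98) in healthy brain and 14.8 CPM (SD 20.9) in Rbpj-deleted tumours.

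The genes whose pattern was most like the mean of the members, over 38 sums of 8 classes and 10067 genes with at least 20 CPM in some sum, were H2-Q7 (Pearson r 0.917), Psme1 (0.908), Psme2 (0.897), H2-Q4 (0.889) and H2-Q6 (0.872). The sums share libraries, and sums of 1 library share its depth, so r is a description. Among the members, H2-K1 followed the mean of the others most closely (0.945) and Tapbp least (0.546), with Tap1 at 0.897, Psmb8 at 0.894 and B2m at 0.893.

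**Figure D5:**
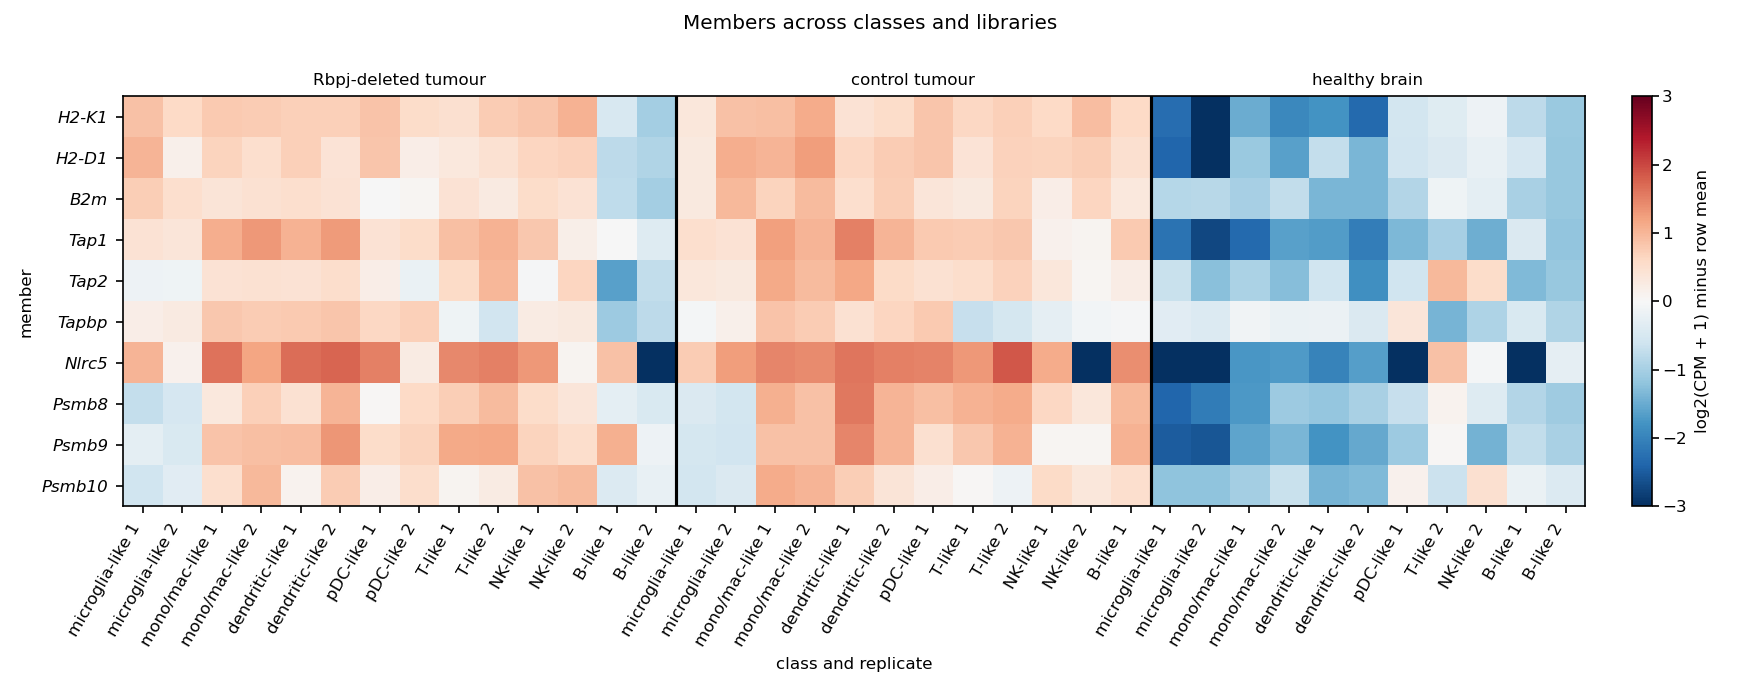
Log2(CPM + 1) of each member minus its mean over the 37 columns, each one of 7 classes in 1 library with at least 10 cells; colours end at 3 above and below the mean. Healthy microglia-like, monocyte/macrophage-like and dendritic-like columns are low for the members, and Tapbp varies less than Nlrc5.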

How the data were processed

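The authors deposited 1 table of counts per gene and barcode, taken as UMI counts because every value was whole; the submitters' processing notes name kallisto 0.46.0, bustools 0.39.3 and mm10, with no role given. All columns were mapped to the 6 libraries by the sample titles in their names (0 not used). Symbols came from GENCODE vM21 (27359 of 27378 IDs).

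Filters removed 17 barcodes with fewer than 500 genes or over 10% of counts from mitochondrial genes, and 256 with over 10 times their counts under the same sequence in another library. No doublet caller was run here; 2687 barcodes with markers of several lineages were removed instead, 1732 of them macrophage with T or NK markers. Cells were clustered with scanpy 1.11.5 (2000 variable genes without the members and H2- genes, 30 components, 20 neighbours, Leiden resolution 1, igraph 0.11.9, seed 0). Clusters were named at a marker score of at least 0.2 with at least 3 markers.

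Counts were summed per library and class (at least 10 cells), filtered with filterByExpr, scaled by TMM and fitted with robust edgeR 4.0.16 quasi-likelihood models (3 residual degrees of freedom with 6 libraries, 2 with 4), with Benjamini-Hochberg adjustment over all genes and calls under 0.05. The SE given with an edgeR change is its absolute log2 change divided by the square root of the quasi-likelihood F statistic. Class differences within a library used limma 3.58.1, and subunit ratios the exact two-sided permutation test. Overlap of libraries was read on TMM-scaled CPM, and levels are printed as CPM of the class total. Alternatives were DESeq2 1.42.0, other filters, scaling and clustering, each library left out, a library division and a replicate block. The fits were checked on simulated data. Members and lists were chosen with earlier results of these data known; the naming, the mixed-barcode rule and the promoter words were settled with the data or sequences in view. Genes named are the members, the 5 most like them and the called genes of the lists, of which a choice is named here after their values were seen. The results of 1 gene of the regulator list are not reported here.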

Additional observations from a re-analysis of the deposited data

Results flagged for a closer look

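For 3 members, the libraries of Rbpj-deleted and control tumours stood apart in opposite directions in 2 classes on TMM-scaled CPM, and the difference between the classes was not tested for any of them. H2-K1 was higher in both Rbpj-deleted than in both control libraries of dendritic-like cells and lower in monocyte/macrophage-like cells, with log2 changes 0.494 apart. Psmb10 was higher in NK-like and lower in monocyte/macrophage-like cells, 0.733 apart. Psmb9 was higher in NK-like and lower in monocyte/macrophage-like cells, 0.531 apart; in CPM of the class total its monocyte/macrophage-like libraries overlapped, with 718 and 735 CPM in Rbpj-deleted and 723 and 730.1 CPM in control tumours. None of these changes between the tumour groups was called in its own class by edgeR, and control replicate 2 held 14 dendritic-like and 17 NK-like cells.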

How the results depend on the processing

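Of 313 alternative counts of called or non-overlapping members or of subunit pairs, 301 stayed within 1.5 times the reported one and 12 moved. Of 1728 alternative values of single members, 1672 kept direction and side of the threshold, 47 lost a call, 9 gained one and 0 reversed. In microglia-like cells, control tumours against healthy brain gave 3 called members without the Tnf-led cluster, where 18 of 9269 genes were called, and 5 to 8 with 1 library left out, the lowest without control replicate 2. Rbpj-deleted tumours against healthy brain gave 8 to 10 in microglia-like, 9 to 10 in monocyte/macrophage-like and 5 to 10 in dendritic-like cells with 1 library left out; control tumours gave 10 to 10 and 7 to 9 in the last 2 classes. Between the tumour groups, and between classes, all such counts were 0. Subunit pairs higher without overlap in Rbpj-deleted than in control tumours numbered 1 in T-like cells, 0 with mixed barcodes kept, 2 with all variable genes in the clustering and 1 to 2 with 1 library left out; in NK-like cells they numbered 0, and 0 to 2 with 1 library left out. The cause of these moves was not tested, beyond the fewer libraries or cells fitted. H2-D1 in control microglia-like cells, not called in the reported fit, passed with DESeq2 (log2 change 3.77, adjusted p = 1.32e-05), with the library division as a term (3.22, edgeR adjusted p = 0.0049) and without either healthy library (edgeR adjusted p = 0.00044 and 0.00294); over its 17 alternatives the adjusted p ran from 1.32e-05 to 0.564. With a replicate block, 10 members were called in Rbpj-deleted and 8 in control microglia-like cells, 10 and 10 in monocyte/macrophage-like and 9 and 9 in dendritic-like cells; Psmb10 was lost (edgeR adjusted p = 0.0504) and H2-D1 gained (0.0464) in control microglia-like cells. Correlations of same-numbered libraries were -0.0869 to 0.1185, so the numbers give no pairing. The library division left 9 and 8, 10 and 10, and 7 and 7 members called in Rbpj-deleted and control cells of those classes, and could not be fitted for T-like and NK-like cells. Chosen after seeing the data, CPM of the class total in place of TMM-scaled CPM moved 4 counts of members without overlap between Rbpj-deleted and control tumours: 2 against 1 lower in microglia-like cells, 2 against 1 lower in dendritic-like cells, 3 against 0 higher in T-like cells and 0 against 1 lower in NK-like cells. Over all genes the shares on the class total were 30.6%, 15.9%, 23.9% and 15.7% in that order. After seeing the data, the Ifit-led cluster was added (10 and 8 called) and the Ccl8-led one left out (10 and 10). Each group had 2 libraries, 14 to 57 cells stood behind some sums, and Nlrc5 in healthy cells rests on few counts.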
